A study of Mus musculus with 15 samples.

Results

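The tubular injury marker genes are 10 genes chosen by symbol, Havcr1, Lcn2, Spp1, Vcam1, Clu, Krt8, Krt18, Krt19, Sox9 and Vim, which are widely used to recognise damaged kidney tubules. They were followed in whole kidney tissue of 15 male C57BL/6 mice of WT genotype, bought at 8 weeks of age. The Control group received saline for 28 days, the AngII group received the pressor hormone angiotensin II at 500 ng/kg/min from implanted pumps for the same period, and the AngII+QDG group received the same infusion with Qingda granule, a Chinese herbal formula, at 1.145 g/kg/day by gavage, with 5 mice in each group. Control and AngII mice were gavaged with water in its place. Transcripts were assigned to genes by GENCODE release 21 for mouse on GRCm38, and 8 of the 10 genes were measured, out of 13940 genes with an annotated transcript in the files of all mice. Havcr1, which encodes the injury molecule KIM-1, and Sox9, a transcription factor of regenerating epithelium, were not analysed here. All 8 measured genes passed the filter of at least 1 FPKM in at least 5 mice, as did 12372 genes in all. FPKM is the number of sequenced fragments scaled by the length of the transcript and the size of the library, so that levels can be compared between genes.

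When a tubule cell is injured it loses its specialised transport functions and takes up a simpler, repair-oriented state. In that state it is known to make secreted proteins such as lipocalin-2 and osteopontin, adhesion molecules that attract leukocytes, and intermediate filament proteins that reinforce the cell. Keratins 8 and 18 pair with each other to form filaments of simple epithelia, keratin 19 joins them in duct epithelia, and vimentin is the filament protein of mesenchymal cells that is also made by dedifferentiated tubules. Because the samples were whole tissue, fewer cells of a type and less RNA per cell cannot be told apart.

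The tissue label was examined first. The 18 proximal tubule markers were all measured, and their summed level ranged from 10821 to 21366 FPKM across the 15 mice, as a kidney sample should have. The implied depth, rounded, was 75000000 to 81300000 fragments per mouse in Control, 70700000 to 79300000 in AngII and 68900000 to 76100000 in AngII+QDG. Mitochondrial transcripts took 18.5% to 20.7% of the FPKM of a mouse in Control, 15.4% to 16.0% in AngII and 16.9% to 19.8% in AngII+QDG, and the part of this difference in the results was not tested. Marker sums of other cells also differed between groups. The podocyte sum was 76.6 to 85.7 FPKM in Control, 103 to 129.9 FPKM in AngII and 100.4 to 127 FPKM in AngII+QDG, and the sum of 3 intercalated cell markers was 50.6 to 54.3, 58.4 to 82.3 and 62.2 to 84.3 FPKM, so that all infused mice lay above all Control mice in both. Of the intercalated cell markers only Slc26a4 separated in this way, at 22.8 to 27.2, 29.6 to 46.7 and 32.2 to 44.5 FPKM. Atp6v1g3 and Foxi1 overlapped between Control and infused mice. The macrophage sum had a median of 165 FPKM in Control, 115 FPKM in AngII and 122 FPKM in AngII+QDG. The proximal tubule sum was higher in every AngII+QDG mouse, from 13552 FPKM, than in any AngII mouse, at most 12002 FPKM. That separation rested on 1 gene, Kap, at 1557 to 4111 FPKM in AngII and 3730 to 9151 FPKM in AngII+QDG. Without Kap the sums of these groups overlapped, and of the 18 genes 9 were higher and 9 lower in AngII+QDG vs. AngII. The part of these shifts in the results below was not tested. Single mice stood apart as well. AngII+QDG mouse 4 had 25.9 FPKM of S100a8 and 39.3 FPKM of S100a9, which are abundant in neutrophils, and the sum of both genes was at most 3.51 FPKM in every other mouse. The other neutrophil markers, Retnlg, Ly6g and Csf3r, were not analysed here. Its summed level of the 6 macrophage markers was 308 FPKM, against 103 to 215 FPKM in the other mice. The urothelial markers, 4 of 5 measured, summed to 13.8 FPKM in AngII mouse 1 and to between 0.620 and 7.98 FPKM in the other mice. The thin limb markers, 4 of 4 measured, summed to 219 FPKM in Control mouse 2, to 161 FPKM in AngII mouse 1 and to 233 FPKM in AngII+QDG mouse 4, against 37.0 to 149 FPKM in the other mice. Akr1b3 alone supplied 173, 135 and 184 FPKM of these sums. Without it, AngII mouse 1 and AngII+QDG mouse 4 were not the highest of their groups. AngII mouse 1 also had the highest sums of adipocyte markers, 79.0 FPKM, smooth muscle markers, 97.8 FPKM, and fibroblast markers, 56.0 FPKM. The adipocyte sum was 45.1 FPKM in Control mouse 2 and at most 16.9 FPKM in the remaining mice.

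Ordered by level, the genes formed a wide range in Control. Spp1 had 190 ± 121 FPKM (SD, n = 5) and Clu 103 ± 15.8 FPKM, followed by Krt8 at 68.4 ± 10.2 FPKM. Vim at 14.1 ± 3.52 FPKM and Krt18 at 11.8 ± 3.93 FPKM came next, and Krt19 at 5.24 ± 4.37 FPKM, Lcn2 at 2.52 ± 1.5 FPKM and Vcam1 at 1.91 ± 0.222 FPKM were the lowest. The ranges of the individual mice overlapped between Spp1 and Clu, between Vim and Krt18, between Krt18 and Krt19, between Krt19 and Lcn2, and between Lcn2 and Vcam1. The ranges therefore do not separate those neighbours, and differences in level between genes were not tested. Krt8 was made at a far higher level than its partner Krt18 in every mouse.

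None of the 8 genes passed an adjusted p of 0.05 in AngII vs. Control, in AngII+QDG vs. AngII or in AngII+QDG vs. Control, in limma's moderated test with Benjamini-Hochberg adjustment over all genes. Over all 12372 genes tested, 5.94% passed in AngII vs. Control, 1.81% in AngII+QDG vs. AngII and 0.129% in AngII+QDG vs. Control. At an unadjusted p under 0.05, 1 of the 8 genes passed in AngII vs. Control (Krt18), 1 in AngII+QDG vs. AngII (Clu) and 0 in AngII+QDG vs. Control, where 22.7%, 16.4% and 14.4% of all genes passed. As gene sums, none reached the study's own threshold of a fold change of at least 2 with an unadjusted p under 0.05, which 1.05%, 0.816% and 0.727% of all genes reached in the same order. Of their transcripts, 3 reached it, Vim-204 in AngII vs. Control, Clu-201 in AngII+QDG vs. AngII and Spp1-205 in AngII+QDG vs. Control, where 2.88%, 2.24% and 2.02% of all transcripts did, and none of the 3 had an adjusted p under 0.05. The median log2 fold change of the 8 genes was 0.057 in AngII vs. Control, beside 0.083 over all genes, and −0.013 in AngII+QDG vs. AngII, beside −0.019. The 2 comparisons share the AngII mice.

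**Figure D1:**
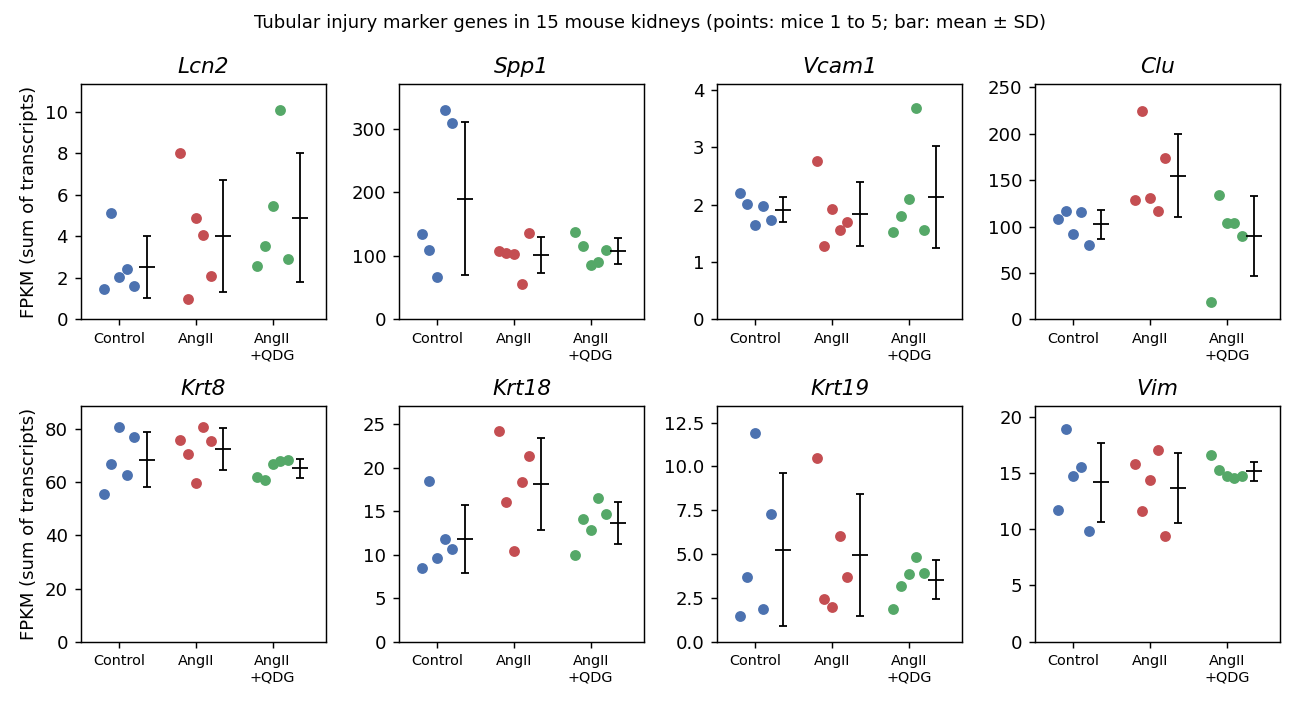
Level in FPKM (vertical axis, starting at 0) of the 8 measured genes in each mouse, with points for mice 1 to 5 of a group from left to right and a bar for the mean ± SD. AngII mice lie above all Control mice for Clu, Control mice 4 and 5 lie far above the others for Spp1, and the groups overlap for the other genes.

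**Figure D2:**
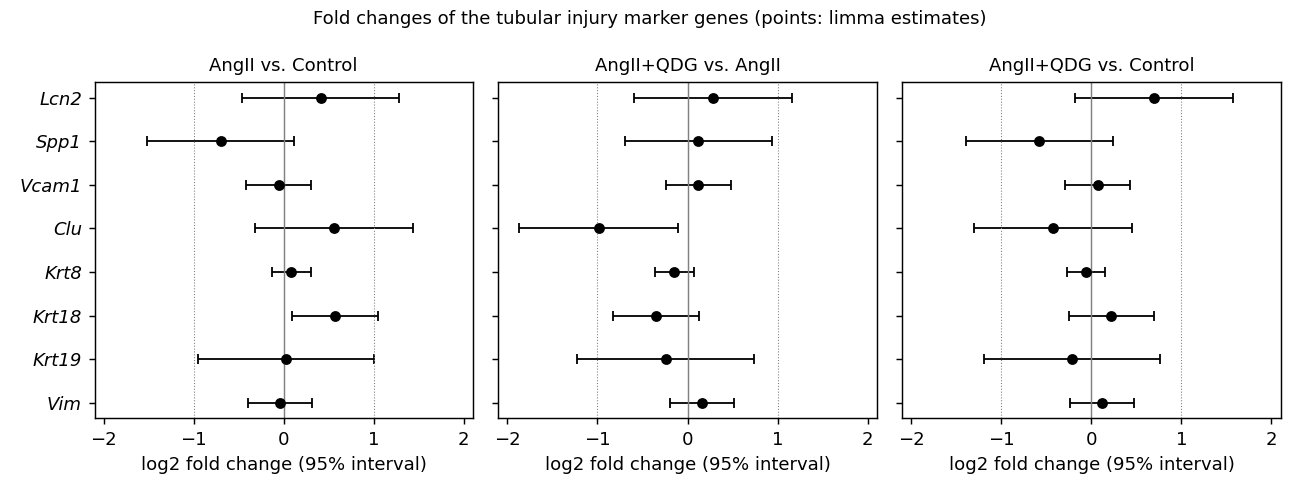
Log2 fold change of each gene with its 95% interval from limma, on the log2(FPKM + 1) scale, in the 3 comparisons, with a dotted line at a fold change of 2 in either direction. The interval leaves out 0 only for Krt18 in AngII vs. Control and for Clu in AngII+QDG vs. AngII, and neither passed the adjustment over all genes.

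Among the secreted proteins, Lcn2 (ENSMUSG00000026822, chromosome 2, 32384633 to 32388252) encodes lipocalin-2, a carrier of iron-binding siderophores that is released into urine after tubular damage. It measured 1.45, 5.12, 2.02, 2.41 and 1.61 FPKM in Control mice 1 to 5. It measured 8.0, 1.01, 4.89, 4.08 and 2.1 FPKM in AngII, and 2.56, 3.53, 5.49, 10.1 and 2.90 FPKM in AngII+QDG. The groups overlapped, and AngII held both a mouse above all Control mice and a mouse below all of them. The log2 fold change was 0.41 in AngII vs. Control (95% interval −0.46 to 1.29, adjusted p = 0.599 from limma) and 0.29 in AngII+QDG vs. AngII (−0.59 to 1.16, adjusted p = 0.789). In AngII+QDG vs. Control it was 0.70 (−0.18 to 1.57, adjusted p = 0.453), with all 5 treated mice above the Control mean. A rise of a fold change of 2 lies within each of these intervals. Single mice moved these values widely, from 0.16 without AngII mouse 1 to 0.70 without AngII mouse 2 in AngII vs. Control, from 0.0017 without AngII mouse 2 to 0.54 without AngII mouse 1 in AngII+QDG vs. AngII, where it was 0.026 without AngII+QDG mouse 4, and from 0.44 without AngII+QDG mouse 4 to 0.92 without Control mouse 2 in AngII+QDG vs. Control. The highest Lcn2 level of each group was in the mouse with the highest urothelial sum of that group, namely Control mouse 2 at 6.98 FPKM, AngII mouse 1 at 13.8 FPKM and AngII+QDG mouse 4 at 7.98 FPKM. The same 3 mice had the highest thin limb sum of their groups, at 219, 161 and 233 FPKM, and differed from the others in the adipocyte, smooth muscle, fibroblast or neutrophil markers given above. The part of any of these cells in the Lcn2 level was not tested.

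Clu (ENSMUSG00000022037, chromosome 14, 65968483 to 65981547) encodes clusterin, a secreted chaperone. It measured 108, 116, 91.8, 116 and 80.6 FPKM in Control mice 1 to 5. In AngII it measured 129, 225, 131, 117 and 174 FPKM. In AngII+QDG it measured 18.3, 133, 103, 103 and 90.1 FPKM. Every AngII mouse was above every Control mouse, but the lowest AngII mouse, at 116.5 FPKM, was almost level with the highest Control mouse, at 116.4 FPKM. Such a separation upward was found for 6.49% of all genes. The ratio of means was 1.51, with a log2 fold change of 0.56 (SE 0.41, 95% interval −0.32 to 1.44, adjusted p = 0.456 from limma). In AngII+QDG vs. AngII, 4 of 5 treated mice were below all AngII mice, and the log2 fold change was −0.99 (SE 0.41, 95% interval −1.87 to −0.10, adjusted p = 0.243 from limma). In AngII+QDG vs. Control it was −0.43 (adjusted p = 0.677). AngII+QDG mouse 1, at 18.3 FPKM, decided much of these values. Without it, the log2 fold change was −0.49 in AngII+QDG vs. AngII (adjusted p = 0.201) and 0.068 in AngII+QDG vs. Control, and the adjusted p in AngII vs. Control became 0.0822. The value in AngII+QDG vs. AngII lay just short of a fold change of 2 and passed the study's threshold in 9 of 24 alternatives, among them a pseudocount of 0.1 (adjusted p = 0.253 from limma) and leaving out AngII+QDG mouse 2, with −1.19 (adjusted p = 0.211). The protein-coding transcript Clu-201 carried nearly all of the sum, with 101 ± 14.9 FPKM in Control, 152 ± 42.1 FPKM in AngII and 87.5 ± 43.3 FPKM in AngII+QDG (SD, n = 5). Its log2 fold change was −1.03 in AngII+QDG vs. AngII (SE 0.43, adjusted p = 0.388 from limma).

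Spp1 (ENSMUSG00000029304, chromosome 5, 104435118 to 104441050) encodes osteopontin, a phosphoprotein that binds integrins and is made by tubules of injured kidneys. It was measured as several transcripts, and the most abundant pair differed in where transcription is annotated to start. Spp1-205 (ENSMUST00000112748) starts at 104435121 and has 7 exons. Spp1-204 (ENSMUST00000112747) starts 1071 bases downstream, at 104436192, and has 6 exons. Both contain the same 882 coding bases and so the same protein. They share 1324 exonic bases, while 183 bases are found only in Spp1-204 and 132 only in Spp1-205, so the split of the fragments between them rests on few bases. The RefSeq promoter windows (GRCm38.p6, plus strand, 250 bases before to 50 after a start) of the upstream start, chr5:104434861-104435160, and of the downstream start, chr5:104435942-104436241, are shown because these starts separate the transcripts compared next, with a TATAAA match in capitals. RefSeq places the upstream start 10 bases before that of Spp1-205, at 104435111, and the downstream start at that of Spp1-204:
upstream window: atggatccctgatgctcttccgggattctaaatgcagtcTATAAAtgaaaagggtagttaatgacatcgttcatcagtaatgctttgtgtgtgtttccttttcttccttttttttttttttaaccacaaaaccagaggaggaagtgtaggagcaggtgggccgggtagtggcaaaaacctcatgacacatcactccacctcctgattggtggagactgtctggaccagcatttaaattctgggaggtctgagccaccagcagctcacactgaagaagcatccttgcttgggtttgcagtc
downstream window: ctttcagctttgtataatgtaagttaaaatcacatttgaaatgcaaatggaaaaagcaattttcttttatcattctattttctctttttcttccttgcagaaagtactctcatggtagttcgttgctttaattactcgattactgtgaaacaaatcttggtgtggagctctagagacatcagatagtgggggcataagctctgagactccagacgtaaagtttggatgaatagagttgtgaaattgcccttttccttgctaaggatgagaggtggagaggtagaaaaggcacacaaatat
TATAAA was found once in the upstream window, 211 bases before the RefSeq start, and in the other window on neither strand, and 13.6% of 32851 promoter windows hold it. CCAAT was likewise found once in the upstream window, 46 bases before the start, and not in the downstream one, beside 37.4% of all windows. The AP-1 motif TGANTCA was found in neither, beside 7.81% of all windows. The GC content was 45.3% upstream and 36.7% downstream. These matches describe letters in the windows and do not show that a factor bound there.

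The summed level of Spp1 was 135, 110, 67.4, 330 and 309 FPKM in Control mice 1 to 5. In AngII it was 108, 105, 103, 56.1 and 136 FPKM, and in AngII+QDG it was 138, 115, 86.3, 90.5 and 109 FPKM. Control mice 4 and 5 stood apart from all other mice, which lay between 56.1 and 138 FPKM. Its log2 fold change was −0.70 in AngII vs. Control (SE 0.38, 95% interval −1.52 to 0.12, adjusted p = 0.301 from limma), 0.12 in AngII+QDG vs. AngII (adjusted p = 0.920) and −0.58 in AngII+QDG vs. Control (adjusted p = 0.509). Without Control mouse 3, the lowest Control mouse, the value in AngII vs. Control was −1.01 (adjusted p = 0.115 from limma), past the study's threshold. Without Control mice 4 and 5, which were left out after the data had been seen, it was −0.034 in AngII vs. Control and 0.085 in AngII+QDG vs. Control.

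The transcripts showed where the high Control levels lay. Spp1-204 had 319 and 296 FPKM in Control mice 4 and 5, 15.1 to 72.6 FPKM in the other Control mice, 11.6 to 76.5 FPKM in AngII and 18.2 to 81.9 FPKM in AngII+QDG. Spp1-205 was lowest in the same pair of mice, at 10.7 and 12.9 FPKM, and lay between 43.6 and 73.7 FPKM in all other mice. Spp1-204 therefore made up 96.6% and 95.6% of the gene in Control mice 4 and 5, and 20.1% to 59.2% in every other mouse. For Spp1-205 the log2 fold change was 0.91 in AngII vs. Control (SE 0.41, adjusted p = 0.298 from limma) and 1.03 in AngII+QDG vs. Control (SE 0.41, adjusted p = 0.435 from limma). Without the same pair of mice these values were 0.074 and 0.19. For Spp1-204 the log2 fold change in AngII vs. Control was −1.31 (SE 0.76, adjusted p = 0.440), and −0.14 without them. Gm42793, an unclassified gene on the same strand, overlaps Spp1, and how its fragments were shared out is not given in the sources used here.

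**Figure D3:**
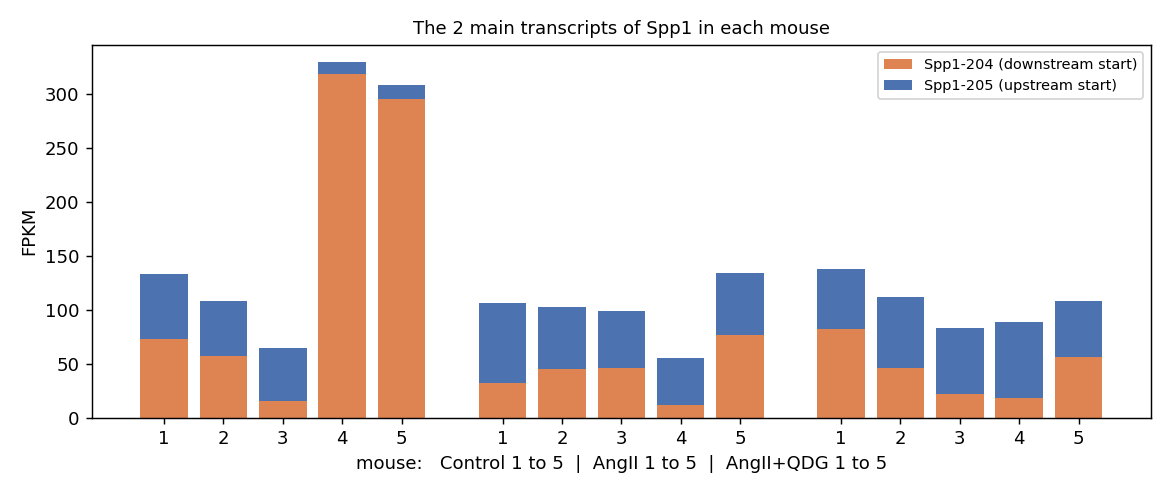
Level in FPKM (vertical axis, from 0) of Spp1-204, with the downstream start, and of Spp1-205, with the upstream start, stacked for each mouse in order of group. Control mice 4 and 5 hold 319 and 296 FPKM of Spp1-204 and the least Spp1-205, while the other 13 mice have both.

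Vcam1 (ENSMUSG00000027962, chromosome 3, 116109949 to 116129688) encodes an adhesion molecule that holds leukocytes through integrins and appears on tubule cells that fail to repair. It measured 2.20, 2.01, 1.65, 1.97 and 1.73 FPKM in Control mice 1 to 5. It measured 2.76, 1.29, 1.92, 1.56 and 1.69 FPKM in AngII, and 1.53, 1.80, 2.1, 3.68 and 1.56 FPKM in AngII+QDG. The groups overlapped throughout, and the highest value was in AngII+QDG mouse 4, the mouse with high S100a8 and S100a9. For Vcam1 the log2 fold change was −0.05 in AngII vs. Control (95% interval −0.41 to 0.31, adjusted p = 0.892 from limma), 0.12 in AngII+QDG vs. AngII (−0.24 to 0.48, adjusted p = 0.780) and 0.07 in AngII+QDG vs. Control (−0.29 to 0.43, adjusted p = 0.888). All of these intervals leave out a fold change of 2 on the log2(FPKM + 1) scale, which understates changes at such low levels. The value in AngII+QDG vs. AngII turned to −0.033 when AngII+QDG mouse 4 was left out.

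Of the intermediate filament genes, Krt8 (ENSMUSG00000049382, chromosome 15, 101996698 to 102004482) and Krt18 (ENSMUSG00000023043, chromosome 15, 102028180 to 102032027) lie next to each other on opposite strands, with their starts 23698 bases apart. Krt8 measured 55.4, 66.8, 80.5, 62.6 and 76.7 FPKM in Control mice 1 to 5, 75.7, 70.5, 59.7, 80.7 and 75.3 FPKM in AngII, and 62.1, 60.7, 66.6, 67.9 and 68.2 FPKM in AngII+QDG. The groups overlapped, and the AngII+QDG mice lay closest together, with an SD of 3.50 FPKM beside 10.2 in Control and 7.97 in AngII. The log2 fold change was 0.09 in AngII vs. Control (95% interval −0.13 to 0.30, adjusted p = 0.664 from limma) and −0.15 in AngII+QDG vs. AngII (−0.36 to 0.07, adjusted p = 0.512). In AngII+QDG vs. Control it was −0.06 (−0.27 to 0.16, adjusted p = 0.831). These are the narrowest intervals of the 8 genes.

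Krt18 measured 8.45, 18.5, 9.61, 11.9 and 10.7 FPKM in Control mice 1 to 5. In AngII it measured 24.3, 16.1, 10.4, 18.4 and 21.4 FPKM, and in AngII+QDG 9.99, 14.2, 12.9, 16.5 and 14.7 FPKM. In AngII, 4 of 5 mice were above the Control mean and 2 were above every Control mouse. The ratio of means was 1.53, and the log2 fold change was 0.57 (SE 0.22, 95% interval 0.10 to 1.05, adjusted p = 0.140 from limma). The result lay close to the threshold in some settings. Its adjusted p was 0.0495 without Control mouse 2, the highest Control mouse, 0.0493 without AngII mouse 3, the lowest AngII mouse, which also stood apart in Hmox1 (given with the injury response genes), and between 0.0540 and 0.300 in the other alternatives. All 5 AngII+QDG mice were below the AngII mean, with a log2 fold change of −0.35 in AngII+QDG vs. AngII (95% interval −0.83 to 0.13, adjusted p = 0.467), and in AngII+QDG vs. Control it was 0.22 (adjusted p = 0.689). As with Lcn2, the mouse highest in Krt18 in each group was the one with the highest urothelial sum and the highest thin limb sum of that group, AngII mouse 1 and Control mouse 2 also had the highest adipocyte sums, and the part of those cells was not tested.

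Krt19 (ENSMUSG00000020911, chromosome 11, 100140810 to 100148665) had the widest intervals of the 8 genes. It measured 1.45, 3.72, 11.9, 1.89 and 7.27 FPKM in Control mice 1 to 5, 10.5, 2.46, 1.96, 6.05 and 3.72 FPKM in AngII, and 1.88, 3.17, 3.89, 4.86 and 3.90 FPKM in AngII+QDG. The highest Control mouse was 8.22 times the lowest, and the groups overlapped fully. Its log2 fold change was 0.03 in AngII vs. Control (95% interval −0.95 to 1.01, adjusted p = 0.983 from limma), −0.24 in AngII+QDG vs. AngII (−1.22 to 0.74, adjusted p = 0.845) and −0.22 in AngII+QDG vs. Control (−1.20 to 0.77, adjusted p = 0.871). Each interval takes in a fold change of 2 in at least 1 direction.

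Vim (ENSMUSG00000026728, chromosome 2, 13573927 to 13582826) measured 11.7, 18.9, 14.7, 15.6 and 9.81 FPKM in Control mice 1 to 5, 15.8, 11.6, 14.4, 17.1 and 9.43 FPKM in AngII, and 16.5, 15.2, 14.7, 14.5 and 14.7 FPKM in AngII+QDG. The groups overlapped, and the AngII+QDG mice again lay closest together. The log2 fold change was −0.04 in AngII vs. Control (95% interval −0.40 to 0.31, adjusted p = 0.912 from limma), 0.17 in AngII+QDG vs. AngII (−0.19 to 0.52, adjusted p = 0.672) and 0.12 in AngII+QDG vs. Control (−0.23 to 0.48, adjusted p = 0.783). Its transcripts differed. Vim-201, which encodes the protein, had a log2 fold change of 0.21 in AngII vs. Control (SE 0.20, adjusted p = 0.670). Vim-204, a transcript that keeps an intron, measured 2.79, 4.17, 3.50, 3.19 and 2.09 FPKM in Control mice 1 to 5, 0.245, 0.218, 0.273, 1.60 and 1.53 FPKM in AngII, and 1.98, 3.52, 0.470, 0.293 and 4.73 FPKM in AngII+QDG. Every AngII mouse was below every Control mouse, as in 1.06% of the 28812 transcripts tested. The difference was −1.30 on the log2 scale (SE 0.40) and did not pass the adjustment over all transcripts (adjusted p = 0.130 from limma). In AngII+QDG vs. AngII it was 0.71 (adjusted p = 0.545), with 3 treated mice above all AngII mice and the other 2 within their range. Of the 14 transcripts of the 8 genes, 12 were tested, and none passed an adjusted p of 0.05 in any comparison. Over all transcripts 0.691% passed in AngII vs. Control, 0.0972% in AngII+QDG vs. AngII and 0.0243% in AngII+QDG vs. Control.

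Whether the same mice were high in several of the genes was examined after taking out the mean of each group, over 28 pairs of genes in 15 mice, with mice permuted within groups in 100000 draws. Krt8 and Krt19 varied together, with Pearson's r = 0.87 (two-sided permutation p = 0.00113, adjusted p = 0.0158) and Spearman's rho = 0.91 (permutation p = 0.00038, adjusted p = 0.0106), and r was 0.84 without Control mouse 1 and AngII mouse 3, the mice farthest from the median of Krt8. Lcn2 and Vcam1 had r = 0.80 (permutation p = 0.00113, adjusted p = 0.0158) and rho = 0.75 (permutation p = 0.00625, adjusted p = 0.0875), and r was 0.63 without AngII+QDG mouse 4 and AngII mouse 1. Only these pairs passed an adjusted p of 0.05 by r, and only the keratins by rho. The Lcn2 and Vcam1 call was lost without AngII mouse 1 (adjusted permutation p = 0.0834), without AngII mouse 2 (0.0699), without AngII+QDG mouse 3 (0.0610) and without AngII+QDG mouse 4 (0.184), while r stayed between 0.74 and 0.86. The Krt8 and Krt19 call was lost without Control mouse 1 (adjusted permutation p = 0.0511) and without Control mouse 2 (0.0683), with r between 0.83 and 0.92. Krt8 and its filament partner Krt18 were not among the pairs that passed. No pooled r is given within single groups, which hold 5 mice.

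**Figure D4:**
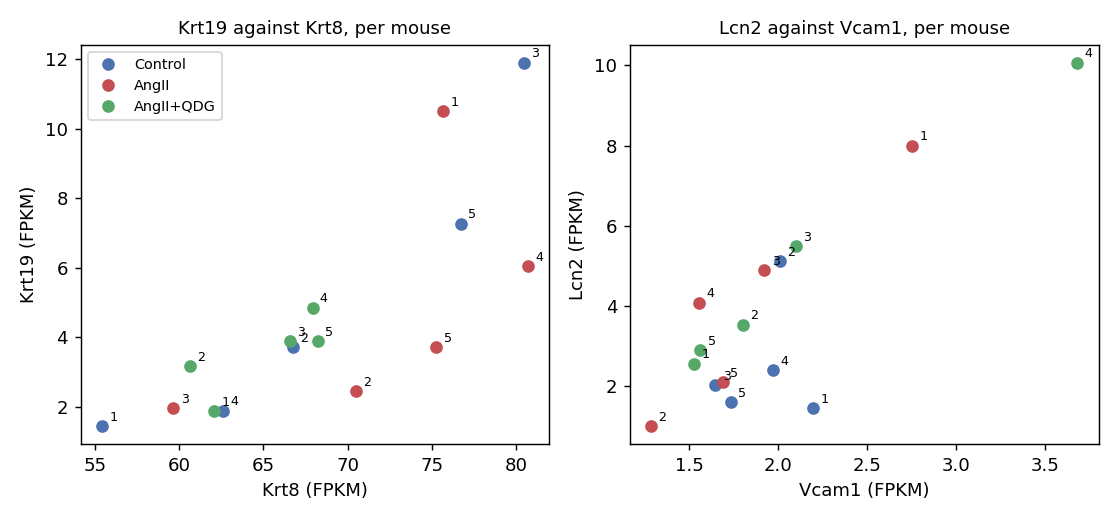
Krt19 against Krt8 (left) and Lcn2 against Vcam1 (right), in FPKM on linear axes that do not start at 0, with 1 point per mouse coloured by group and numbered within it. Mice with more Krt8 mostly have more Krt19 in each group, and AngII+QDG mouse 4 and AngII mouse 1 lie at the top right for Lcn2 and Vcam1.

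For 3 of the genes, the genes with the most similar level over all 15 mice were looked up among 7283 genes with a mean of at least 5 FPKM, as a description. For Lcn2 these were Mrps6 (Pearson's r = 0.87), Ctnnal1 (0.86) and Ehf (0.85). For Spp1 they were Oxct1 (0.74), Ppara (0.70) and Commd5 (0.69), and these r include Control mice 4 and 5. For Krt8 they were Alg1 (0.83), Mccc1 (0.83) and Rnpepl1 (0.75).

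The wider families of these genes were examined from lists. Of 14 other intermediate filament genes, 10 were tested, and 1, 0 and 0 passed an adjusted p of 0.05 with limma in AngII vs. Control, AngII+QDG vs. AngII and AngII+QDG vs. Control, beside 5.94%, 1.81% and 0.129% of all genes. At an unadjusted p under 0.05 there were 2, 1 and 1 of the 10, beside 22.7%, 16.4% and 14.4% of all genes. Krt7, a keratin of duct and urothelial epithelia, rose in AngII. It measured 14.9, 15.3, 7.98, 15.2 and 13.4 FPKM in Control mice 1 to 5, 23.8, 23.0, 20.7, 21.9 and 31.7 FPKM in AngII, and 19.3, 21.1, 19.0, 14.1 and 17.7 FPKM in AngII+QDG. Every AngII mouse was above every Control mouse, as for 6.49% of all genes. The rise was 0.83 on the log2 scale (SE 0.17, adjusted p = 0.0149 from limma), and the adjusted p lay between 0.0104 and 0.0423 in all alternatives run. In AngII+QDG vs. AngII it was −0.39 (SE 0.17, adjusted p = 0.261 from limma), and in AngII+QDG vs. Control 0.45 (adjusted p = 0.245). The median over the 10 genes was 0.28 in AngII vs. Control, beside 0.08 over all genes.

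Of 37 further genes known to respond to tubular injury, 29 were tested and 0 passed an adjusted p of 0.05 with limma in any comparison. At an unadjusted p under 0.05 there were 6 in AngII vs. Control, 0 in AngII+QDG vs. AngII and 4 in AngII+QDG vs. Control, beside 22.7%, 16.4% and 14.4% of all genes. Hmox1, which encodes the stress-induced heme oxygenase, had 249.7 FPKM in AngII mouse 3 and 15.4 to 26.8 FPKM in the other 14 mice, and was picked out after its values were seen. Nearest to the threshold was Sox4, a transcription factor of the developing and injured tubule, with 3.78 ± 0.523 FPKM in Control, 5.03 ± 0.282 FPKM in AngII and 5.02 ± 0.674 FPKM in AngII+QDG (SD, n = 5), a log2 fold change of 0.34 in AngII vs. Control (SE 0.10, adjusted p = 0.0509 from limma). Fgg, the gamma chain of fibrinogen, had 9.41 ± 3.42, 5.51 ± 1.24 and 5.71 ± 1.29 FPKM in the same groups (SD, n = 5), a log2 fold change of −0.64 in AngII vs. Control (SE 0.20, adjusted p = 0.0719 from limma). The median log2 fold change of the 29 genes was 0.17, beside 0.08 over all genes.

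Of 15 receptors, ligands and binding partners of the injury marker proteins, 7 were tested and 0 passed with limma in any comparison, with 1, 0 and 1 at an unadjusted p under 0.05 in AngII vs. Control, AngII+QDG vs. AngII and AngII+QDG vs. Control, beside the same background shares of 22.7%, 16.4% and 14.4%. Lrp2 encodes megalin, the proximal tubule receptor that takes up lipocalin-2 from the filtrate, and had 224 ± 14.2 FPKM in Control, 209 ± 19.2 FPKM in AngII and 199 ± 9.79 FPKM in AngII+QDG (SD, n = 5). Its log2 fold change in AngII+QDG vs. Control was −0.17 (adjusted p = 0.265 from limma). Plec encodes plectin, a linker of intermediate filaments, and had a log2 fold change of 0.41 in AngII vs. Control (SE 0.18, adjusted p = 0.184 from limma).

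The proximal tubule genes, which an injured tubule is known to lose, were set beside the injury markers. All 18 were tested and 0 passed an adjusted p of 0.05 with limma in any comparison, with 6, 5 and 2 at an unadjusted p under 0.05 in AngII vs. Control, AngII+QDG vs. AngII and AngII+QDG vs. Control, again beside 22.7%, 16.4% and 14.4% of all genes. The median log2 fold change in AngII vs. Control was 0.00085, with 9 genes higher and 9 lower. Slc22a6, the organic anion transporter of the basolateral membrane, had 314 ± 34.1 FPKM in Control, 363 ± 33.6 FPKM in AngII and 279 ± 36.3 FPKM in AngII+QDG (SD, n = 5), with a log2 fold change of −0.38 in AngII+QDG vs. AngII (SE 0.10, adjusted p = 0.0650 from limma). Kap, an androgen-regulated gene of the proximal tubule, was the most variable, with 6639 ± 4519 FPKM in Control, 2677 ± 1136 FPKM in AngII and 6840 ± 2161 FPKM in AngII+QDG (SD, n = 5), and its log2 fold changes were −1.12 in AngII vs. Control (adjusted p = 0.159) and 1.39 in AngII+QDG vs. AngII (adjusted p = 0.134).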

How the data were processed

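RNA-seq was performed on renal tissue from 15 mice, 1 library per mouse. The paper describes rRNA depletion of total RNA and also names a kit for isolating poly(A) mRNA. The authors deposited a list of values for each mouse, covering annotated Ensembl transcripts and others of their own assembly, with mm10 named in the submitters' processing notes along with limma. The aligner and quantifier are not given in the sources used here. The unit of the deposited values was taken as FPKM from the values themselves. Multiplied by transcript length, 98.7% to 98.8% of values under 200 fragments were whole multiples of 1 constant per mouse, within 0.1 of a fragment, and the implied depth follows from that constant. The deposited lists hold transcripts whose larger group mean of 2 groups was at least 0.500 FPKM, so low transcripts are missing by construction. Assembled transcripts, 9.61% to 11.9% of the FPKM of a mouse, carry no gene name, and fragments of a gene assigned to them are not in its sum.

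FPKM of the annotated transcripts present in all 15 files (28871) were summed per gene. Genes that reached 1 FPKM in 5 mice or more were tested with limma 3.58.1 in R 4.3.3 (trend, 12 residual degrees of freedom) on log2(FPKM + 1), in 1 model with a mean per group, two-sided, with Benjamini-Hochberg adjustment over all genes tested. The pseudocount of 1 understates fold changes of low genes. The model was tested on simulated data. Intervals are 95% intervals of that model, and fragment counting error is small beside the spread between mice, since Lcn2, the gene with the fewest, had 73 to 646 implied fragments. Correlations used scipy 1.17.1. Replicates are separate mice, numbered in accession order, and the numbers do not pair them. The genes and lists were chosen with earlier results of these data known. Genes named from the lists are those called in any comparison, or else the 2 with the smallest p. Likeness was looked up for 4 genes by rule, of which Havcr1 was not analysed here. Alternatives were a pseudocount of 0.1, no filter, median scaling, quantile normalization, 2 groups only, all listed transcripts, the most abundant transcript, array weights and each mouse left out, with Control mice 4 and 5 left out together, and with the same settings for transcripts, Krt7 and correlations, added after seeing the data. How fragments shared by near-identical gene copies were counted is not given in the sources used here.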

Additional observations from a re-analysis of the deposited data

Results flagged for a closer look

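In each group of 5 mice, the highest and lowest value of the 8 injury marker genes, the transcripts of Clu, Spp1 and Vim tested, the other genes and the marker sums given in FPKM was compared with its nearest neighbour by Dixon's ratio, the gap divided by the range of the group, with a critical value of 0.710. Of 105 groups examined, 14 held a mouse past it. The critical value is meant for independent values with a normal distribution. Several items here overlap, such as a gene and its transcript, and FPKM need not be normal, so no chance rate is given. Hmox1, S100a8, S100a9, Lyz2 and several of the marker sums were described because a mouse stood apart in them, so their part of this count is fixed by that choice. Lcn2 was 5.12 FPKM in Control mouse 2, against 2.41 FPKM in the next mouse (ratio 0.739). That mouse also had the highest urothelial marker sum of the Control group, 6.98 FPKM, beside 0.620 to 2.91 FPKM in the other Control mice, and a thin limb sum of 219 FPKM, against 43.6 FPKM in the next mouse (ratio 0.964). Akr1b3 made up 173 FPKM of that thin limb sum. Vcam1 was 3.68 FPKM in AngII+QDG mouse 4, against 2.1 FPKM in the next mouse (ratio 0.734). That mouse also had 25.9 FPKM of S100a8, 39.3 FPKM of S100a9 and 58.0 FPKM of Lyz2, against 1.85, 1.23 and 20.3 FPKM in the next mouse of its group (ratios 0.929, 0.989 and 0.831), and the highest thin limb sum of its group, 233 FPKM. Akr1b3 made up 184 FPKM of that thin limb sum, and without it this mouse was not the highest. The part of these markers in either value was not tested. Krt7 was 7.98 FPKM in Control mouse 3, against 13.4 FPKM in the next mouse (ratio 0.735), and 31.7 FPKM in AngII mouse 5, against 23.8 FPKM in the next mouse (ratio 0.719). Fgg was 7.65 FPKM in AngII mouse 3, against 5.33 FPKM in the next mouse (ratio 0.730). The adipocyte sum was 79.0 FPKM in AngII mouse 1, against 1.38 FPKM in the next mouse (ratio 0.983), and 16.9 FPKM in AngII+QDG mouse 5, against 5.52 FPKM in the next mouse (ratio 0.793). Hmox1 was 249.7 FPKM in AngII mouse 3, against 26.8 FPKM in the next mouse (ratio 0.970), and 22.7 FPKM in AngII+QDG mouse 2, against 17.4 FPKM in the next mouse (ratio 0.727). The intercalated cell sum was 84.3 FPKM in AngII+QDG mouse 2, against 64.0 FPKM in the next mouse (ratio 0.920).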

How the results depend on the processing

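No paired analysis was possible because each mouse belonged to 1 group only, and the replicate numbers do not pair mice across groups. Across 216 log2 fold changes of the 8 genes, under alternatives other than leaving out single mice, 207 kept their direction and none passed an adjusted p of 0.05. Direction turned in 9. For AngII vs. Control, Krt19 was -0.064 with median scaling, -0.056 with quantile normalization and -0.019 without Control mice 4 and 5, Krt8 was -0.0050 with median scaling, Vcam1 was 0.12 with all listed transcripts summed and Vim was 0.21 with its most abundant transcript. For AngII+QDG vs. Control, Vcam1 was -0.0092 with median scaling and -0.032 with quantile normalization, and Spp1 was 0.085 without Control mice 4 and 5. When single mice were left out, some values turned direction, and over all 15 such fits the values for AngII vs. Control ranged from -0.26 to 0.36 for Krt19, from -0.16 to 0.073 for Vim and from -0.16 to 0.021 for Vcam1. For AngII+QDG vs. AngII the ranges were -0.45 to 0.042 for Krt19, -0.033 to 0.23 for Vcam1 and -0.078 to 0.24 for Spp1. For AngII+QDG vs. Control they were -0.48 to 0.12 for Krt19, -0.63 to 0.068 for Clu, -0.086 to 0.14 for Vcam1 and -0.13 to 0.0018 for Krt8. Between 0 and 1 of the 8 genes passed for AngII vs. Control, the 1 being Krt18 without Control mouse 2 or without AngII mouse 3, and between 1 and 3 pairs of genes varied together.

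Over all genes, the 735 called for AngII vs. Control became 470 with median scaling, 460 with 2 groups only, 274 without Control mice 4 and 5, and 338 (without Control mouse 1) to 797 (without Control mouse 2) without single mice. The higher share of these calls was 83.3%, beside 42.6% with median scaling and 45.9% with quantile normalization. The 224 called for AngII+QDG vs. AngII became 68 with 2 groups only and 53 to 250 without single mice, with 65 higher and 159 lower, beside 72 and 112 with median scaling and 97 higher and 97 lower with quantile normalization. The 16 called for AngII+QDG vs. Control became 80 with all listed transcripts summed, 62 with array weights, 4 with 2 groups only, 3 without Control mice 4 and 5 and 0 to 110 without single mice, with 12 higher and 4 lower, beside 8 and 12 with median scaling and 8 and 7 with quantile normalization. The causes were not tested. With 5 mice per group, the spread between mice and not the fragment count limited what could be detected for Lcn2, Krt19 and Spp1, and for Vcam1 and Lcn2 the low level limits the fold change on the log2(FPKM + 1) scale.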
